A study of Danio rerio with 6 samples.

Results

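The genes described here are 10 zebrafish genes of the circadian clock's feedback and output arm, namely nr1d1, nr1d2a, nr1d2b, ciarta, dbpa, dbpb, tefa, tefb, nfil3 and bhlhe41. They were measured in brain RNA of 6 adult fish on Affymetrix Zebrafish Gene 1.0 ST arrays, with 1 brain per array. All 10 were found among 19260 named genes, each as 1 row of the deposited table whose annotation names that gene alone. The set was chosen from the values of these same 6 arrays, because nr1d1 and some of its partners differed strongly between fish. The pattern over fish, and the group difference that follows from it, are therefore descriptions and support nothing independently. The p-values printed below come from a fit over all genes and carry no independent weight for these genes.

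The fish were of the Tübingen strain, about 1 year old, with sex not specified, and no transgene, mutation or drug is named for either group. The hypoxia group held 3 fish, each kept on its own for 3 h in nitrogen-bubbled water with 1.20 ± 0.6 mg/l of dissolved oxygen. The normoxia group held 3 fish in water with the normal 6.6 ± 0.45 mg/l. Neither what the ± stands for nor the hour of the day at which a fish was taken is stated in the labels.

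The vertebrate clock is a loop in which CLOCK and BMAL proteins switch on E-box genes, among them the period and cryptochrome genes, whose products then shut CLOCK and BMAL off. The Rev-erb receptors, encoded by the nr1d genes, form a second loop: they are haem-binding nuclear receptors that repress bmal1 at sites where the ROR receptors activate. The proline and acidic amino acid-rich bZIP factors (dbp, tef and hlf) carry the rhythm to output genes through the D-box, a site at which nfil3 represses. In zebrafish the D-box also carries the response of clock genes to light, and clocks run in most tissues, the brain included.

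Values are log2 signals, so a difference of 1 is a doubling of signal. Probes bind with unequal efficiency, so levels are compared only between fish and never between genes. The arrays were not alike as a whole. The SD of all gene values was 1.60 in normoxia 1, 1.47 in normoxia 3 and 1.42 in hypoxia 3, against 1.25 to 1.34 in the other 3 arrays. Pituitary markers, 10 genes measured of 11 listed, had a mean log2 value of 9.63 in hypoxia 3 and 10.2 in normoxia 3 and of 6.60 to 7.33 in the others. Markers of neurons had mean log2 values of 9.80 to 10.5 on every array, as fits the tissue named in the labels. A tissue-level value cannot tell fewer cells of a kind from less RNA per cell.

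The Rev-erb gene nr1d1 had log2 values of 8.74, 8.86 and 7.87 in hypoxia 1, 2 and 3 and of 10.27, 8.55 and 10.26 in normoxia 1, 2 and 3. Normoxia 1 and normoxia 3 stood apart at the top, hypoxia 3 was lowest, and normoxia 2 lay among the hypoxia fish, so that the groups overlapped. The range over the 6 fish was 2.4 log2 units with an SD of 0.97, and 0.613% of all genes had an SD that large. The mean was 8.49 ± 0.54 in hypoxia and 9.69 ± 0.99 in normoxia (SD, n = 3 each), a difference of -1.20 (SE 0.46, 95% interval -2.25 to -0.16, limma adjusted p = 0.72). The SD within normoxia alone, 0.99, was close to the size of that difference. With 1 fish left out the difference ran from -1.78 without normoxia 2 to -0.89 without hypoxia 3.

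Its paralog nr1d2b had log2 values of 10.02, 10.01 and 9.57 in hypoxia and of 10.88, 9.60 and 10.54 in normoxia. The order of the fish was nearly that of nr1d1, with normoxia 1 and 3 highest and with hypoxia 3 and normoxia 2 lowest, over a narrower range of 1.31. The difference between groups was -0.47 (SE 0.32, adjusted p = 0.75), and with 1 fish left out it ran from -0.84 without normoxia 2 to -0.20 without normoxia 1. The remaining Rev-erb gene, nr1d2a, did not share the order. Its log2 values were 10.45, 10.69 and 10.96 in hypoxia and 9.97, 10.83 and 10.98 in normoxia, so that normoxia 1, highest for nr1d1, was lowest here, while normoxia 3 was high for both genes. The difference of nr1d2a was 0.11 (SE 0.28, 95% interval -0.53 to 0.75, adjusted p = 0.93). Its sign was not stable, at -0.20 without normoxia 1 and 0.30 without normoxia 3.

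**Figure D1:**
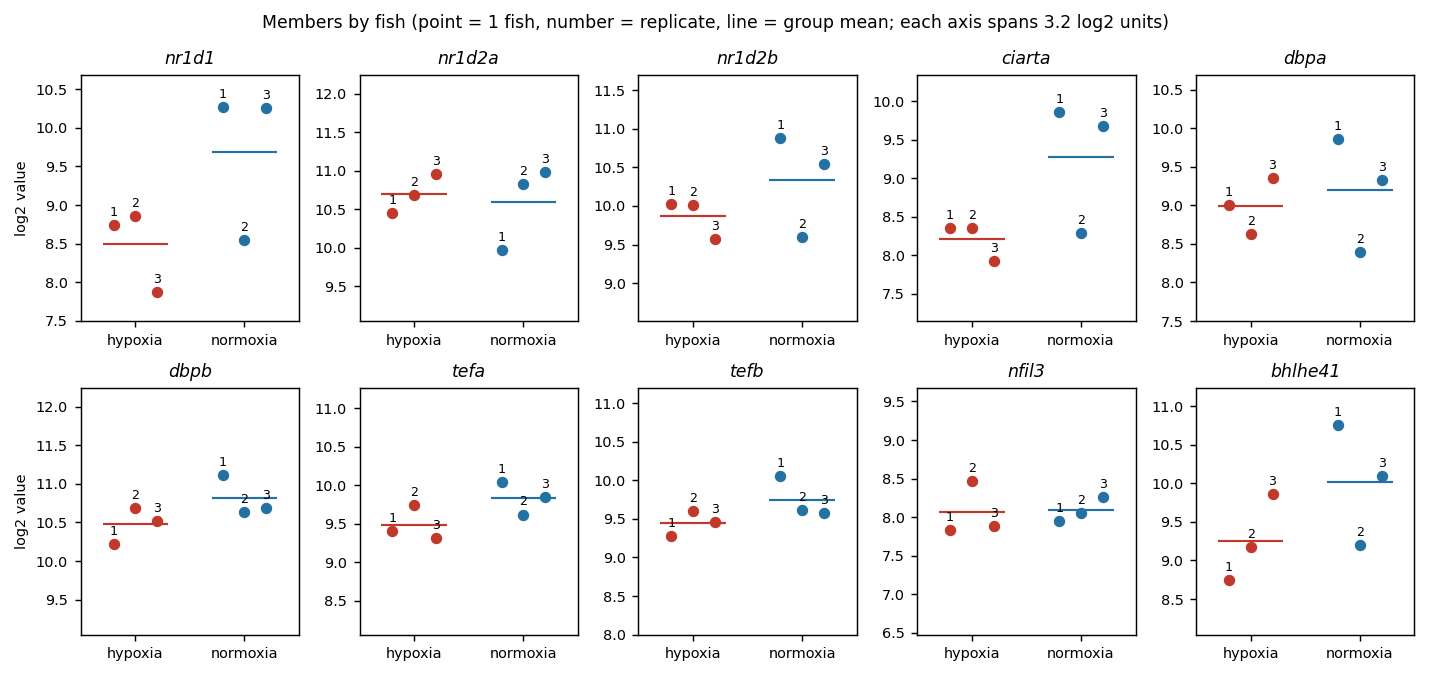
Log2 value of each of the 10 genes (vertical axis, spanning 3.2 log2 units in every panel) in the 3 hypoxia and 3 normoxia fish; each point is 1 fish with its replicate number, and the line is the group mean. In nr1d1, nr1d2b, ciarta, tefa and bhlhe41 normoxia 1 and 3 lie above the other 4 fish, and normoxia 2 lies within the hypoxia range.

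The gene ciarta encodes a vertebrate repressor of CLOCK and BMAL, known in mammals as CIART or CHRONO. Its log2 values were 8.35, 8.35 and 7.93 in hypoxia and 9.86, 8.29 and 9.68 in normoxia. As for nr1d1, normoxia 1 and 3 stood above the rest by more than 1 log2 unit, hypoxia 3 was lowest and normoxia 2 fell between hypoxia 3 and the other hypoxia fish. Means were 8.21 ± 0.24 and 9.28 ± 0.86 (SD, n = 3 each), with a difference of -1.07 (SE 0.38, 95% interval -1.92 to -0.21, adjusted p = 0.72). Without normoxia 2, which left 2 normoxia fish, the difference was -1.56 with limma adjusted p = 0.0461, and in that fit 0.0779% of all genes passed as lower in hypoxia.

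The repressor gene bhlhe41, known in mammals as DEC2 and there inducible by low oxygen, had log2 values of 8.74, 9.17 and 9.86 in hypoxia and of 10.76, 9.20 and 10.09 in normoxia. Normoxia 1 and 3 were again highest, but hypoxia 3 came next and hypoxia 1 was lowest, unlike nr1d1. The mean was 9.26 ± 0.57 in hypoxia and 10.02 ± 0.78 in normoxia (SD, n = 3 each), and the difference of -0.76 (SE 0.40, 95% interval -1.67 to 0.15) had an adjusted p of 0.72 in limma. It ran from -1.17 without normoxia 2 to -0.39 without normoxia 1, and was -0.21 with array spread as a covariate.

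Of the D-box activator genes, dbpb, tefa and tefb varied less than each of the genes above. The SD of dbpa, 0.53, was under those of nr1d1, ciarta and bhlhe41 and above those of nr1d2a and nr1d2b. Values of tefa were 9.40, 9.74 and 9.32 in hypoxia and 10.04, 9.62 and 9.85 in normoxia, with normoxia 1 and 3 highest and a range of 0.72. Those of tefb were 9.28, 9.60 and 9.46 in hypoxia and 10.06, 9.61 and 9.58 in normoxia, where normoxia 1 alone stood above the other 5 fish. In dbpb, with 10.22, 10.69 and 10.52 in hypoxia and 11.11, 10.64 and 10.69 in normoxia, normoxia 1 was again alone at the top and hypoxia 1 was lowest. The gene dbpa had 9.0, 8.63 and 9.35 in hypoxia and 9.86, 8.40 and 9.33 in normoxia, so that hypoxia 3, lowest of all fish for nr1d1, was second highest, over a range of 1.46. Differences between groups were -0.35 (SE 0.20) for tefa, -0.30 (SE 0.20) for tefb, -0.34 (SE 0.21) for dbpb and -0.20 (SE 0.35) for dbpa, with limma adjusted p from 0.734 to 0.883.

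The D-box repressor gene nfil3 had log2 values of 7.84, 8.47 and 7.88 in hypoxia and of 7.95, 8.06 and 8.26 in normoxia. Hypoxia 2 was highest and normoxia 1 was in the middle, so that nfil3 followed neither nr1d1 nor the dbp and tef genes. Its group means of 8.06 ± 0.35 and 8.09 ± 0.16 (SD, n = 3 each) differed by -0.03 (SE 0.22, 95% interval -0.53 to 0.47, limma adjusted p = 0.981).

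In all, 9 of the 10 genes had a lower mean in hypoxia, where 61% of all genes did. Each of the 10 had a mean log2 value of at least 8, and 77.6% of all genes at that level were lower. After adjustment over all genes in limma 0 of 10 passed the threshold of 0.05, where 0.00519% did. At an unadjusted p under 0.05 there were 2 of 10, nr1d1 and ciarta, against 5.76% of all genes that were lower at that level. That count rested on single fish, being 0 without normoxia 1, 0 without normoxia 3, 1 without hypoxia 3 and 6 without normoxia 2, and it was 0 with array spread as a covariate. The hypoxia and normoxia values overlapped in each of the 10, while they did not overlap in 11.3% of all genes. The median difference was -0.34 over the 10, -0.08 over all genes and -0.18 over those with a mean of at least 8. With the arrays shifted to equal medians, which moved the median of all genes to 0.06, that of the 10 was -0.20. After quantile normalization of gene values the medians were -0.11 and 0.01, dbpa and nfil3 turned to 0.02 and 0.15, and the differences of nr1d1 and ciarta were -0.96 and -0.82. The spread of the arrays varied with the pattern in part, being widest in normoxia 1 and normoxia 3 and next in hypoxia 3, where nr1d1 was lowest. With array spread as a covariate, a setting chosen after the data were seen, the differences were -0.84 for nr1d1, -0.69 for ciarta and -0.19 for nr1d2b, and the median over the 10 was -0.187.

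**Figure D2:**
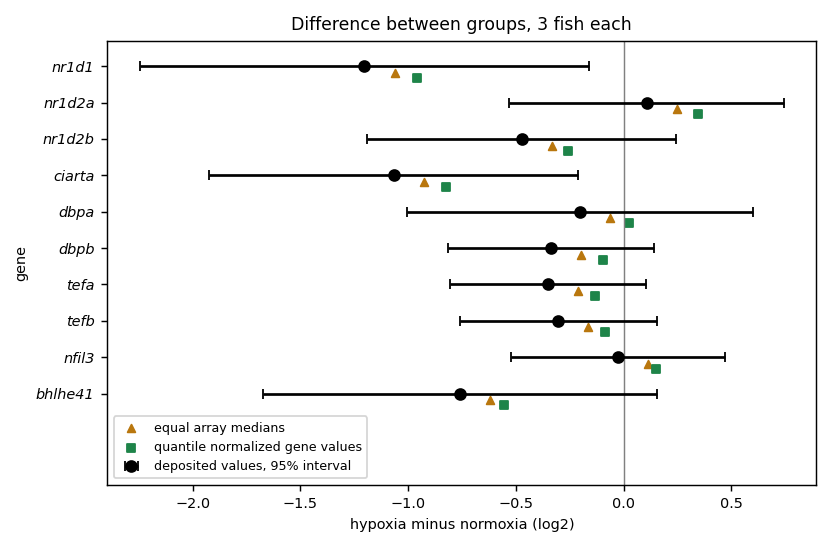
Difference of hypoxia minus normoxia on the log2 scale (horizontal axis) for each gene; black points with bars are the limma difference and its 95% interval from 3 fish each, triangles the difference with equal array medians and squares that after quantile normalization. Intervals of nr1d1 and ciarta, not adjusted for the number of genes, lie below 0 and the other 8 include 0; the scalings move every gene upward.

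Likeness to nr1d1 was measured by Pearson's r of log2 values over the 6 fish. Since 2 fish stood far above the other 4 for nr1d1, r mostly records whether a gene shares that gap, and it is given without a test. It was 0.98 for ciarta, 0.95 for nr1d2b and 0.89 for tefa, followed by 0.64 for dbpb, 0.63 for tefb, 0.62 for bhlhe41, 0.54 for dbpa, 0.26 for nfil3 and -0.44 for nr1d2a. A value as high as that of ciarta was reached by 0.0519% of all genes, that of nr1d2b by 0.436% and that of tefa by 2.06%. For dbpb, tefb, bhlhe41 and dbpa the share was 21% to 30.5%, so that these were no more like nr1d1 than many genes. After quantile normalization r was 0.98 for ciarta and 0.90 for nr1d2b, and it dropped to 0.50 for tefa, 0.22 for dbpb and 0.08 for tefb. Computed on deviations from the group means, so that the difference between groups did not enter, it was 0.97 for ciarta and 0.96 for nr1d2b. It was lower, on the same deviations, for tefa (0.79), bhlhe41 (0.40), dbpb (0.36) and tefb (0.35) than on the values themselves. For dbpa, nfil3 and nr1d2a it was 0.55, 0.30 and -0.47.

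**Figure D3:**
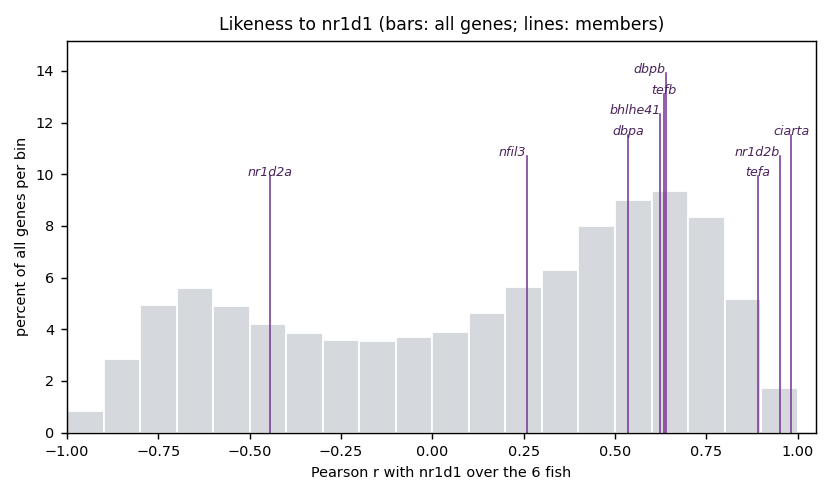
Percent of all 19260 genes (bars, bins of 0.1) by Pearson's r with nr1d1 over the 6 fish, with a line at the r of each of the 9 other genes. The lines of ciarta (0.98) and nr1d2b (0.95) fall in the rightmost bin, which holds 1.72% of genes with nr1d1 itself included, and nr1d2a (-0.44) and nfil3 (0.26) lie far to the left.

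Some of the other genes resembled each other. On the deposited values of the 6 fish r was 0.98 between dbpb and tefb, 0.87 between dbpb and tefa and 0.86 between tefa and tefb. In these 3 genes normoxia 1 was highest on the deposited values. After quantile normalization normoxia 2 was highest in each of the 3, at 10.795 for dbpb, 9.84 for tefa and 9.82 for tefb. Normoxia 1 was then at 10.775, 9.68 and 9.70. The r of tefa with nr1d1, 0.89, was as high as those with dbpb and tefb. The gene bhlhe41 was most like dbpa (0.83) and dbpb (0.82). Of the 10 genes, 5 had normoxia 1 and 3 as the highest fish (nr1d1, nr1d2b, ciarta, tefa and bhlhe41). This order by itself was common: 25.1% of all genes had it, and 41% of those with a mean log2 value of at least 8. After quantile normalization 4 of the 10 had it against 10.7% of those brighter genes. The set was chosen because some of its genes differed strongly between these fish, so their SDs are description only. An SD as large as that of ciarta was found in 1.37% of all genes, that of bhlhe41 in 2.02% and that of nr1d2b in 8.61%. For tefa, tefb, dbpb and nfil3 the share was 47.1% to 60.9%. The SD covers all 6 fish, and that of bhlhe41 took in hypoxia 1, at -0.90 from its mean.

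Among all other genes with an SD of at least 0.486, which is 50% of that of nr1d1, and a mean of at least 6, those most like nr1d1 were named by r. They were per1a (0.99), crip2 (0.99), cox4i2 (0.98), tshz3a (0.97), cbln2a (0.97), gfap (0.97), slc25a1b (0.97), rps27l (0.96), ropn1l (0.96) and ninj1 (0.96). The closest, per1a, is a period gene of the clock. Its log2 values of 7.64, 7.80 and 7.24 in hypoxia and 8.63, 7.48 and 8.41 in normoxia put the fish in the same order as nr1d1, and its difference was -0.61 (SE 0.31, adjusted p = 0.72). The glial filament gene gfap had 8.62, 9.01 and 7.81 in hypoxia and 9.55, 8.44 and 9.87 in normoxia. At the opposite end were sgms2b (-0.94), tgm1l2 (-0.93), he1.2 (-0.93), taar12j (-0.92) and fam83b (-0.92), all with means of 6.08 to 7.09 over the 6 fish.

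The period and cryptochrome families hold the repressors that close the main loop, and also relatives without that role, such as the photolyase-like cry5 and cry-dash. Of 12 measured, 9 had a positive r with nr1d1, as had 62% of all genes and 87.2% of those with a mean of at least 8, and the count of signs lies between these shares. The median r was 0.80, where it was 0.26 over all genes and 0.50 over the brighter ones. After quantile normalization it was 0.60, against -0.02 over all genes, and the number of the 12 with normoxia 1 and 3 as the highest fish went from 6 to 2. On that scale r was 0.97 for per1a but 0.27 for per2 and 0.13 for cry1b. On the deposited values r was 0.91 for per1b, 0.90 for cry2 and 0.82 for cry-dash. The values of per1b were 9.72, 9.69 and 8.64 in hypoxia and 10.30, 8.91 and 10.15 in normoxia, where hypoxia 3 and normoxia 2 were low and normoxia 1 and 3 high, as for nr1d1. Of the 12, 10 had a lower and 2 a higher mean in hypoxia and 0 passed in limma (adjusted p from 0.72 to 0.993). None reached an unadjusted p under 0.05 either.

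In the positive limb, whose genes encode the activators, 5 of 6 measured genes had a negative r with nr1d1, and the median was -0.51. A negative r was found in 38% of all genes and in 12.8% of those with a mean of at least 8. The gene bmal1b, whose mammalian counterpart is repressed by Rev-erb, had r = -0.92. Its log2 values of 8.15, 8.41 and 8.48 in hypoxia and 7.90, 8.47 and 7.72 in normoxia were lowest in the fish with the highest nr1d1. In npas2, a partner of BMAL, 8.89, 8.57 and 8.82 in hypoxia lay above 8.25, 8.32 and 8.14 in normoxia without overlap, and the difference was 0.52 (SE 0.18, adjusted p = 0.72). Values of bmal2 had r = -0.64 and those of clocka r = -0.38. On deviations from the group means r was -0.89 for bmal1b, -0.84 for bmal2 and -0.50 for npas2, but 0.04 for clocka and -0.03 for clockb. After quantile normalization, with the group difference left in, r was -0.84 for clocka, -0.83 for bmal1b and -0.77 for clockb. On that scale it was -0.70 for npas2, -0.49 for bmal2 and 0.18 for bmal1a. The median was then -0.74, against -0.02 over all genes. Of the 6 genes 5 had a higher and 1 a lower mean in hypoxia, and 0 passed. In 3 of the 6 (npas2, bmal1b and bmal2) normoxia 1 and 3 were the lowest fish. That order was found in 13.9% of all genes and in 1.69% of those with a mean of at least 8. Below that level lay bmal2, with a mean of 6.725, and bmal1a, at 6.68.

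**Figure D4:**
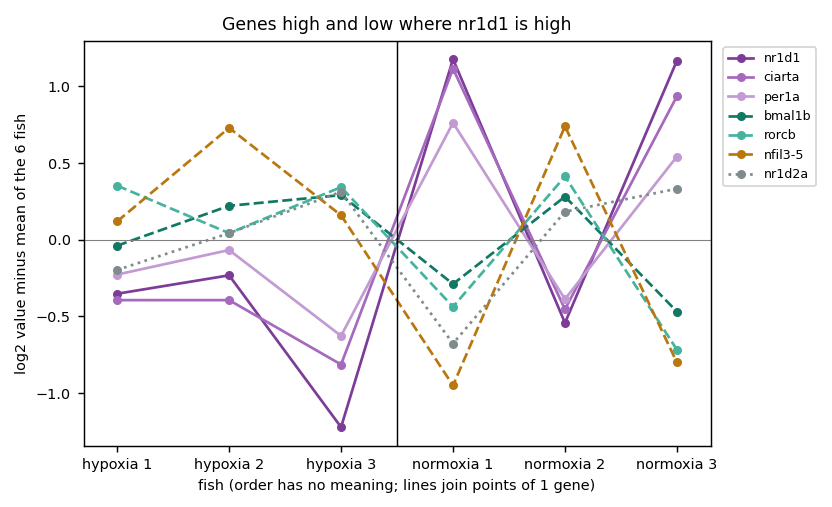
Log2 value of each fish minus the gene's mean over the 6 fish (vertical axis) for nr1d1, ciarta and per1a (solid lines), bmal1b, rorcb and nfil3-5 (dashed) and nr1d2a (dotted); the order of fish has no meaning. In normoxia 1 and 3 the solid lines are high and the dashed lines low, in normoxia 2 the reverse holds, and nr1d2a is low in normoxia 1 and high in normoxia 3.

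A difference between genes taken within an array is free of any shift that is common to all genes of that array. The value of nr1d1 minus that of bmal1b was 2.37 in normoxia 1 and 2.54 in normoxia 3, against 0.08 in normoxia 2 and 0.59, 0.45 and -0.61 in the hypoxia fish. Its zero depends on the probes, so only its change between fish has a meaning. That change was 3.15 log2 units from hypoxia 3 to normoxia 3. As bmal1b was chosen with its r of -0.92 known, a range wider than the 2.4 of nr1d1 follows from that choice. For nr1d1 minus nfil3, nr1d2a and nfil3-5 the ranges were 2.33, 3.39 and 3.51. Unequal spread of the arrays is not removed by such a difference.

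The ROR receptors, which act at the sites where Rev-erb represses, were split. The gene rorcb had r = -0.93 with nr1d1 and log2 values of 7.96, 7.65 and 7.95 in hypoxia and 7.17, 8.02 and 6.89 in normoxia, with normoxia 1 and 3 lowest. By contrast roraa (0.85) and rorab (0.75) were highest in normoxia 1 and 3. Of the 4 measured, 3 had lower means in hypoxia, 1 a higher one and 0 passed.

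The closest relatives of the 10 genes were measured as well, as part of a list of 12 other repressors and bZIP outputs, of which 8 had a higher and 4 a lower mean in hypoxia and 0 passed. The second ciart gene, ciartb, had r = 0.74 with nr1d1 and values of 8.93, 8.66 and 9.04 in hypoxia and 10.09, 8.44 and 9.42 in normoxia. Its highest fish was normoxia 1, as for ciarta, but hypoxia 3 was not low. In bhlhe40, the partner of bhlhe41, normoxia 1 was highest at 11.76 and normoxia 3 came next at 10.92 (r = 0.80 with nr1d1). The remaining fish lay from 10.37 to 10.47. Among paralogs of nfil3, nfil3-5 had values of 8.47, 9.08 and 8.51 in hypoxia and 7.40, 9.09 and 7.55 in normoxia (r = -0.81), and nfil3-2 had r = -0.88. Both were lowest in normoxia 1 and 3, as was nfil3-4 (r = -0.72) at a low mean of 5.12. Neither nfil3-6 (r = -0.33) nor nfil3 itself showed that order. The hlf kind of PAR bZIP gene varied little or otherwise: hlfa ranged only from 11.30 to 11.65, and hlfb was highest in hypoxia 3 at 9.68 and lowest in hypoxia 1 at 8.65. The gene nocta, for the rhythmic enzyme nocturnin, had r = -0.46 and its paralog noctb r = 0.73, with differences of 0.65 and -0.76 (adjusted p = 0.736 and 0.72).

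Clock kinases and ubiquitin ligases, which set the stability of period and cryptochrome proteins, had a median r of 0.43 over 10 genes, which was -0.30 after quantile normalization. Of these 8 had a lower and 2 a higher mean in hypoxia, with 0 passing. Those that varied most were fbxl3a (r = -0.01), fbxw11a (0.71), csnk1db (0.43) and fbxl3b (-0.47).

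**Figure D5:**
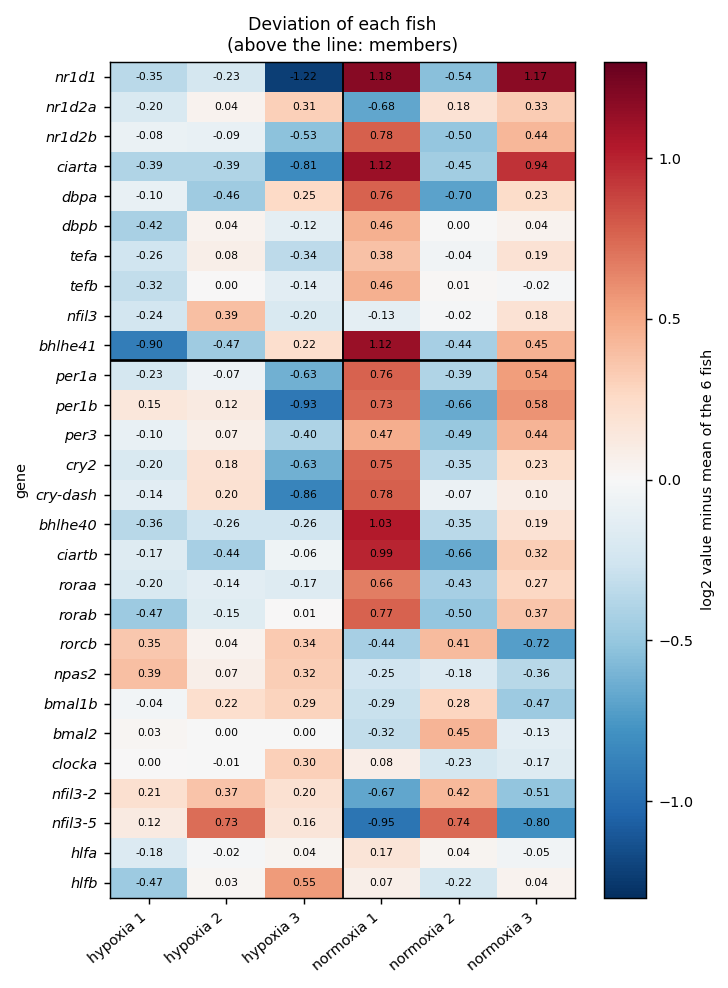
Log2 value of each fish minus the gene's mean over the 6 fish (colour and printed number) for the 10 genes, above the line, and for 18 other clock genes. The column of normoxia 1 is at 1.18 for nr1d1, 1.12 for ciarta and for bhlhe41 and -0.68 for nr1d2a, and the column of normoxia 2 is at -0.54 for nr1d1.

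Lists outside the clock differed in how far they followed nr1d1. Among 15 genes listed as glucocorticoid-induced, the glucocorticoid receptor gene nr3c1 included, 12 had a higher and 3 a lower mean in hypoxia and 0 passed. Their median r with nr1d1 was -0.47, with 11 negative and 4 positive. Of all genes 38% had a negative r, and of those with a mean of at least 8 it was 12.8%. Among the 4 positive were sgk1 (0.57) and nr3c1 (0.50), which turned to -0.34 and -0.31 after quantile normalization. On that scale all 15 were negative, with a median of -0.64 against -0.02 over all genes. The gene klf9, which is both induced by glucocorticoids and rhythmic in many tissues, had 10.77, 11.82 and 11.89 in hypoxia and 8.28, 11.39 and 10.37 in normoxia, and fkbp5 had 7.27 in normoxia 1 and from 10.29 to 11.22 in the other 5 fish. Their r with nr1d1 was -0.82 and -0.72. Those of cebpd and dusp1, next in SD in that list, were -0.19 and -0.58. Of 26 hypoxia-inducible targets 10 had a higher and 16 a lower mean, where 61% of all genes were lower, and 0 passed. Their median r with nr1d1 was 0.01, against 0.26 over all genes. After quantile normalization it was -0.33, with 20 negative and 6 positive, against -0.02 over all genes. Among these targets ndrg1a had a difference of -0.91 and igfbp1a one of 0.64 (limma adjusted p = 0.72 and 0.736). Of 20 immediate early genes, which neuronal activity switches on, 16 had a higher and 4 a lower mean and 0 passed. Their median r was 0.00275, and -0.08 after quantile normalization. Their most variable member npas4a was highest in hypoxia 2 at 11.40. An unadjusted p under 0.05 in limma was reached by 6.66% of all genes in either direction. Among clock genes it was reached by 1 of the 6 positive limb genes, 0 of the 4 ROR genes, 0 of the 10 kinases and ligases and 1 of the 12 other repressors and outputs. Outside the clock it was reached by 1 of the 15 genes of the glucocorticoid list, 4 of the 26 hypoxia-inducible targets and 0 of the 20 immediate early genes.

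Markers of several cell types varied with nr1d1 over the fish, and their part in its pattern was not tested. The mean log2 value of oligodendrocyte and myelin markers (7 measured of 10) took the values 9.25, 9.13 and 9.41 in the hypoxia fish against 9.95, 9.10 and 9.81 in the normoxia fish. That of microglia and macrophage markers (10 of 10) came to 7.81, 7.79 and 7.88 in hypoxia, against 8.18, 7.71 and 8.39 in normoxia, and that of radial glia and astroglia (10 of 11) 9.57 to 9.98 in hypoxia and 10.2, 9.76 and 10.6 in normoxia. In the means of these 3 lists normoxia 1 and 3 were the highest fish. Taken singly, 25.1% of all genes had that order and 41% of those with a mean of at least 8. These shares are for single genes and give no background for means over lists. Of the single markers 5 of 7, 6 of 10 and 5 of 10 had it in the 3 lists. After quantile normalization 1, 3 and 3 had it, against 13.3% of all genes. Pineal and photoreceptor markers (25 of 26), from tissue with a strong clock of its own, were at 7.65, 6.54 and 7.56 in hypoxia and 6.93, 6.83 and 7.57 in normoxia, which is another order. Pituitary markers were high in hypoxia 3 and normoxia 3, the lowest and a high fish for nr1d1. With hypoxia 3 and normoxia 3 left out together the difference of nr1d1 was -0.61 and that of ciarta -0.72, and 0 of the 10 genes passed in limma, nor did any reach an unadjusted p under 0.05. Endothelial (7.47 to 7.74), erythrocyte (6.60 to 7.33), lens (5.87 to 6.48) and choroid plexus and ependymal markers (7.03 to 7.59) also differed between fish. The lens list was lowest in normoxia 1 and 3. The mean of the choroid plexus and ependymal list was highest in normoxia 1 and 3, at 7.21 and 7.59, as in the 3 lists above. Of its single markers 3 of 5 had that order, and 2 after quantile normalization.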

How the data were processed

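Per the series' design text, the authors applied RMA background correction and quantile normalization to CEL intensities. The gene values used here were nevertheless not alike in distribution, with array medians from 7.32 to 7.60 and SDs from 1.25 to 1.60. Whether the deposited values carry that quantile normalization was not tested. Affymetrix Expression Console and RMA are the tools in the submitters' processing notes, without versions. The deposited values are taken as log2, since they run from 1.62 to 14.34, and their probe set level and filters are not stated. The table has 75212 rows: 20806 with a single annotated gene, 855 with several and 53551 that are unnamed here. Symbols were updated by Entrez identifier (20323 rows matched), rows of the same gene were averaged (19260 genes) and dim genes were kept. Arrays hold no molecule counts, so precision is limited by the number of fish.

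Groups came from sample titles. The 6 arrays were fitted with limma 3.58.1 (lmFit, then eBayes) under R 4.3.3, with group as the only term, and p-values were adjusted by Benjamini-Hochberg over all genes, with 0.05 as threshold. The code was checked on simulated data. Other settings were a replicate block, leaving out each array, equal array medians, quantile normalization, a minimum mean level of 6, robust moderation, an intensity trend and a gene's brightest row in place of the mean. Chosen after the data were seen were array spread as a covariate and a fit without hypoxia 3 and normoxia 3.

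The 10 genes, the 8 pathway lists and the 10 cell type lists were chosen with earlier results of these data known. Named were the 10 genes, the 10 other genes with the highest and the 5 with the lowest r with nr1d1 (SD at least 50% of that of nr1d1, mean at least 6, informative symbols, which passed over 2 and 1), and up to 4 genes with the largest SD from each pathway list. Singled out after their values were seen were bhlhe40, nfil3-2, nfil3-4, nfil3-6, hlfa, hlfb, per3, roraa, per2, cry1b, cry5, clockb, sgk1 and nr3c1 in text or plots. So were the comparisons of nr1d1 with bmal1b and other genes within arrays. Between hypoxia and normoxia fish of the same replicate number, deviations from group means correlated at -0.34, 0.10 and 0.20 for numbers 1, 2 and 3. Between fish of unlike numbers r ran from -0.47 to 0.42. With 3 fish per group these values cannot tell whether fish were paired by number.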

Additional observations from a re-analysis of the deposited data

How the results depend on the processing

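In limma 1 gene of 19260 passed, and none of the 10 genes described here. With 1 array left out the number of genes past the threshold ran from 0 to 17 and that of the 10 genes from 0 to 1 (ciarta, without normoxia 2). It was 2 after quantile normalization, 0 with a minimum mean level of 6, 0 with an intensity trend and 0 without hypoxia 3 and normoxia 3, where 1486, 1255, 1300 and 585 genes had an unadjusted p under 0.05, and none of the 10 passed under these 4. The replicate block left 1 gene past the threshold, 0 of the 10 and the median of -0.34 as they were. The median difference over the 10 genes was negative under all 15 alternatives, from -0.53 without normoxia 2 to -0.11 after quantile normalization. Of 150 differences of single genes under the alternatives, 137 kept their sign and stayed on the same side of the threshold, 1 passed and 12 changed sign, in nr1d2a, dbpa and nfil3. For nr1d2a, 0.11 on the deposited values, it was -0.027 with array spread as a covariate and -0.20 to 0.30 with 1 array left out. For dbpa, -0.20 on the deposited values, it was 0.023 after quantile normalization, 0.22 with array spread as a covariate and -0.60 to 0.13 with 1 array left out. For nfil3, -0.03 on the deposited values, it was 0.11 with equal medians, 0.15 after quantile normalization, 0.15 without hypoxia 3 and normoxia 3, and -0.23 to 0.085 with 1 array left out. The number of genes with r of at least 0.9 with nr1d1 was 331, or 187 with equal medians and 147 after quantile normalization. With 1 array left out that number ran from 400 without normoxia 1 to 2008 without hypoxia 3. Those counts are over 5 fish and cannot be set directly against counts over 6. With 1 array left out r with nr1d1 ran from 0.97 to 0.99 for ciarta, 0.94 to 0.97 for nr1d2b, 0.82 to 0.93 for tefa, 0.34 to 0.92 for bhlhe41, 0.20 to 0.89 for dbpa and -0.95 to 0.16 for nr1d2a. The causes of these changes were not tested.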
